A study of Arabidopsis thaliana with 3 samples.

Results

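The 18486 AAU sites of Arabidopsis thaliana seedling mRNA were examined, as a share of 15.4% (95% interval 15.2 to 15.6%) of the 120269 N6-methyladenosine (m6A) sites in the deposited table. A site entered the set when the table gave its 3-letter motif as AAU, with the methylated adenosine in the middle, and no measured value was used in the choice. The seedlings were grown for 7 days on plates of reduced-strength Murashige and Skoog medium, under 16 h of daily light and a temperature of 22 °C. They were not treated. The 3 biological replicates formed 1 group, without a control group, and whole seedlings mix the cells of all their tissues. Poly(A)-enriched RNA of the Col-0 accession was subjected to CAM-seq, which deaminates unmodified adenosine to inosine, read as G, and leaves m6A to be read as A. The m6A level of a site was the percentage of its reads that remained A.

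In plants m6A is written by a nuclear complex of MTA and MTB with FIP37, VIR and HAKAI, read by YTH domain proteins of the ECT family, and removed by demethylases of the ALKBH family. The mark is best known in the consensus RAC (R is A or G), where a cytosine follows the methylated base. AAU departs from it at that following base. The letters AAU also begin AAUAAA, the classical poly(A) signal recognised by the cleavage and polyadenylation machinery.

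Of the 5 AAU sites with the most reads among those with a level of at least 50%, 4 are shown with the 10 bases on either side, since their reads are many, together with a pair of AAU sites from 1 gene that lay 30 nt apart and differed widely in level. The pair was chosen after its values were seen. Sequences are those of the deposited table (TAIR10, T written as U), 5′ to 3′, with the 5-letter motif in capitals and the methylated adenosine in its centre.
PETC, chr4:1441811-1441831, + strand: uacucuguGAAUUcuugccuc
AT5G64400, chr5:25750208-25750228, + strand: aucuuaaaGAAUUauccagcu
AT5G52650, chr5:21355689-21355709, − strand: agauuccgGAAUCcuucauaa
emb2184, chr1:28272770-28272790, + strand: uuguauguGAAUUuucuucug
NPQ4 first site, chr1:16873271-16873291, + strand: aauuguugUAAUAcuuauauc
NPQ4 second site, chr1:16873301-16873321, + strand: uuaacuugGAAUUuucugauu

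All of these lay in the 3′ untranslated region (UTR) of the last exon of their gene, and the 4 sites outside NPQ4 shared a guanine at position −2 (2 nt before the methylated adenosine) and a uracil at position +4. In PETC, which encodes the Rieske iron-sulfur protein of the cytochrome b6f complex, 7699 of 13686 reads remained A, a level of 56.3% (95% Wilson interval 55.4 to 57.1%), at 104 nt after the stop codon. The site of emb2184 had 66.0% over 3717 reads (64.4 to 67.5%), the site of AT5G52650 had 56.9% over 3948 reads (55.4 to 58.5%) and the site of AT5G64400 had 52.9% over 4353 reads (51.4 to 54.3%). In NPQ4, which encodes the photosystem II subunit S of photoprotection, the site preceded by G at −2 had 28.7% over 7657 reads (27.7 to 29.7%), and the site with U at −2 had 1.52% over 9076 reads (1.29 to 1.79%). These intervals do not overlap, and like all intervals given here they cover counting error only.

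Each site carries a single pair of counts with no sample name, read here as the pool of the 3 replicates, so no spread between replicates can be given, and comparisons were made within genes or as descriptions. AAU sites had a median of 109 reads (quartiles 52 and 265, maximum 66887), and 9805 of them (53.0%) had at least 100. Sites are listed only if they passed a binomial test against a background of 1% unconverted reads (p-value below 0.001 at 20 or more reads). The lowest level that could be listed was therefore 20% at 20 reads, 6.0% at 100 reads and 2.2% at 1000 reads. At a level of 25%, 20 reads give a Wilson interval of 11.2 to 46.9%, 100 reads one of 17.5 to 34.3% and 1000 reads one of 22.4 to 27.8%.

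AAU sites were methylated at a mean level of 24.2% (SD over sites 20.3 points, n = 18486), with a median of 17.2% and quartiles of 9.09 and 33.3%. The level exceeded 50% at 2276 sites (12.3%) and reached 80% or more at 418 (2.26%), and 5 sites were at 100%. The motif made up 10.2% of all unconverted reads in the table. The mean was 44.8% over 32226 AAC sites, which differ from AAU only in the base after the adenosine, 25.5% over 15456 GAU sites and 29.9% over 18372 UAC sites. The mean level of AAU sites was lower in each deeper class of reads, from 31.4% at 20 to 49 reads to 13.1% at 1000 or more reads, and that of AAC sites went from 48.7 to 34.6% over the same classes. Among AAU sites of 20% or more, which any depth can list, the mean lay between 41.1 and 42.7% in the 5 classes below 1000 reads and was 36.9% above.

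To compare motifs without differences between transcripts, the mean level of each motif was taken per gene and the difference was tested over genes having both, by an exact two-sided sign test with Benjamini-Hochberg adjustment over 8 contrasts. Genes stand in the place of replicates in this test, which does not measure the spread between plants. The 8 contrasts were set with earlier results of these data known. AAU differed from AAC by −23.6 points (SE 0.281, 7963 genes), and it was lower in 6673 genes and higher in 1288 (exact sign test, log10 of the adjusted p −867). Against UAC the difference was −6.33 points (SE 0.295, 6497 genes), with AAU lower in 3943 genes and higher in 2550 (exact sign test, adjusted p = 6.05e-67). Against GAU the difference was −1.72 points (SE 0.298) over 5921 genes, with AAU lower in 3052 and higher in 2868 (exact sign test, adjusted p = 0.02). That last difference did not pass the threshold of 0.05 when only sites with at least 50 reads (−1.85 points) or 100 reads (−2.39 points) were used, or when the reads of a gene were summed (−1.66 points). With levels of at least 20% it passed and was larger, at −4.32 points, with AAU lower in 1371 genes and higher in 1031.

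The mean level of AAU sites differed with the base at position −2, although the levels of the classes overlapped. With guanine there the mean level was 29.5% (median 22.6%, 8522 sites), with adenine 21.5% (15.6%, 8340 sites), with cytosine 10.7% (7.47%, 552 sites) and with uracil 9.53% (7.41%, 1072 sites). Purines therefore preceded 16862 of the 18486 sites. Within 1045 genes that held both classes, sites with a purine averaged 29.8% and sites with a pyrimidine 9.10%, a difference of 20.8 points (SE 0.584), and the purine class was higher in 958 genes and lower in 86 (exact sign test, adjusted p = 2.13e-186). Guanine exceeded adenine by 10.3 points (SE 0.468) over 2653 genes, higher in 1782 and lower in 870, a contrast chosen after the values were seen and given without a test. Levels above 50% were found at 18.3% of sites with guanine, 8.49% of those with adenine and 8 of 1624 sites with a pyrimidine. Among sites with at least 100 reads the means were 25.8% for guanine, 17.3% for adenine, 7.79% for cytosine and 7.26% for uracil.

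**Figure D1:**
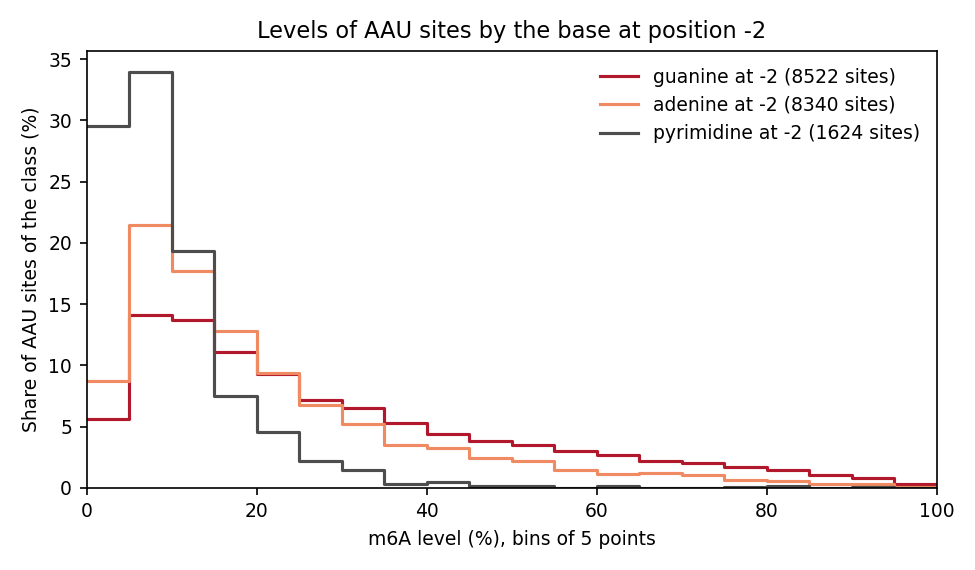
Share of AAU sites (y axis, percent of the class) in bins of 5 points of m6A level (x axis, percent) for guanine, adenine and pyrimidine at position −2. The pyrimidine class of 1624 sites lies mostly below 30%, whereas the guanine class of 8522 sites extends to 100%.

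How often an AAU was listed at all also differed with the base at −2, with uracil above cytosine here and the reverse in mean level. In the window from 20 nt before to 180 nt after the stop codon, coding transcripts with a listed site held 15821 AAU adenosines preceded by guanine at −2, and 37.4% of these were listed (95% interval 36.6 to 38.2%). The share was 21.7% with adenine (21.3 to 22.2%, 27289 adenosines), 3.53% with uracil (3.30 to 3.79%, 21961 adenosines) and 2.74% with cytosine (2.48 to 3.02%, 14129 adenosines). An adenosine that is not listed may have been read fewer than 20 times or have failed the binomial test. For AAC the corresponding shares were 54.7% with guanine, 53.9% with adenine, 43.2% with uracil and 33.9% with cytosine. The ratio between the best and the worst base was thus larger for AAU than for AAC. The mean level of AAC sites was 49.0% after guanine and 49.0% after adenine. GAU resembled AAU, with 44.1% listed after guanine, 22.9% after adenine, 10.3% after uracil and 3.42% after cytosine.

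The 16 combinations of the bases at −2 and +2 spread the AAU mean from 7.84% to 31.6%. GAAUA (31.6%, 2012 sites) and GAAUU (31.3%, 3376 sites) led, and UAAUG (7.84%, 161 sites), CAAUG (7.97%, 60 sites) and UAAUC (8.06%, 84 sites) were the lowest. In the stop codon window 49.0% of GAAUU adenosines were listed but only 1.12% of CAAUG adenosines. AAC had a higher mean than AAU in all 16 combinations, and GAU did in 15, CAAUC with 53 sites being the exception. Across the 16 combinations the AAU means ran with those of AAC (Pearson 0.82, Spearman 0.85) and of GAU (0.96 and 0.88). These coefficients describe motifs in 1 pooled library set and carry no test. With the same flanking bases in both motifs, the AAC mean exceeded the AAU mean by 17.5 to 28.9 points where a purine stood at −2 and by 8.83 to 27.6 points where a pyrimidine did. Set against all AAC sites of the same gene, whatever their base at −2, AAU sites with a pyrimidine there differed by −42.8 points (SE 0.667) over 1202 genes and were higher in 40, and AAU sites with guanine there by −17.4 points (SE 0.372) over 5137 genes and were higher in 1207. With guanine at −2 in both motifs, the difference of AAU from GAU was −8.30 points (SE 0.606) over 2093 genes, lower in 1286 and higher in 805. These 3 contrasts were chosen after the values were seen and were not tested.

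**Figure D2:**
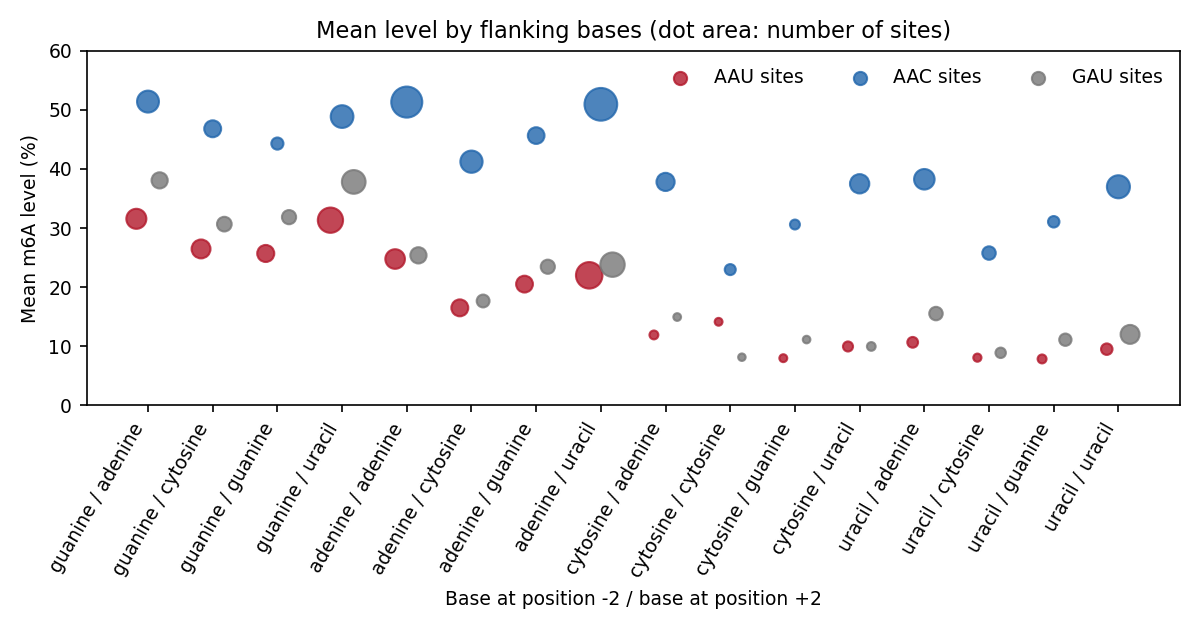
Mean m6A level (y axis, percent) for each combination of bases at positions −2 and +2 (x axis) of AAU, AAC and GAU sites, with dot area following the number of sites. AAC lies above AAU in all 16 combinations, and AAU ranges from 31.6% with guanine at −2 and adenine at +2 to 7.84% with uracil at −2 and guanine at +2.

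Further downstream, uracil at position +4 marked the higher AAU sites. It was present at 55.3% of AAU sites, at 55.4% of those in the stop codon window and at 31.6% of the AAU adenosines of that window that were not listed. Sites with uracil at +4 had a mean level of 27.0% (10213 sites), against 20.6% with adenine, 19.97% with cytosine and 21.03% with guanine. The share listed in the window was 25.6% with uracil and between 10.4 and 13.1% with the other bases. Within 3099 genes, sites with uracil at +4 exceeded other AAU sites by 7.41 points (SE 0.434), and among sites with guanine at −2 by 11.7 points (SE 0.870, 949 genes, higher in 634 and lower in 314). Both contrasts were chosen after the values were seen and were not tested. At +2, the mean level was 26.2% with adenine, 24.8% with uracil, 22.0% with guanine and 21.6% with cytosine, and the share listed in the window ran from 11.1% with guanine to 21.9% with uracil. Grouped by class, which joins a higher and a lower base on each side, a purine there exceeded a pyrimidine by 1.31 points (SE 0.438), higher in 1497 genes and lower in 1489, which did not pass the exact sign test (adjusted p = 0.898).

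Both positions together separated the extremes. AAU sites with guanine at −2 and uracil at +4 averaged 34.5% (4238 sites) and 51.3% of such adenosines in the window were listed, and adenine with uracil gave 24.7% (4745 sites) and 35.6%. Restricting the first class to adenine or uracil at +2 left 2499 sites with a mean of 37.1%, 28.5% of them above a level of 50%, and 1707 of 2995 window adenosines listed (57.0%). At the other end, a pyrimidine at −2 without uracil at +4 gave 394 sites with a mean of 9.01%, and 273 of 23222 window adenosines were listed (1.18%). After a pyrimidine the base at +4 went with the listed share more than with the level. With cytosine at −2 the mean was 10.9% with uracil at +4 and 7.93 to 11.3% with other bases, and with uracil at −2 9.88% and 7.29 to 8.94%. The shares listed with uracil at +4 were 5.86% after cytosine and 7.56% after uracil, and at most 1.52% with other bases. At positions −5, −4, −3, +3 and +5 the mean per base lay between 22.1 and 26.4%.

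**Figure D3:**
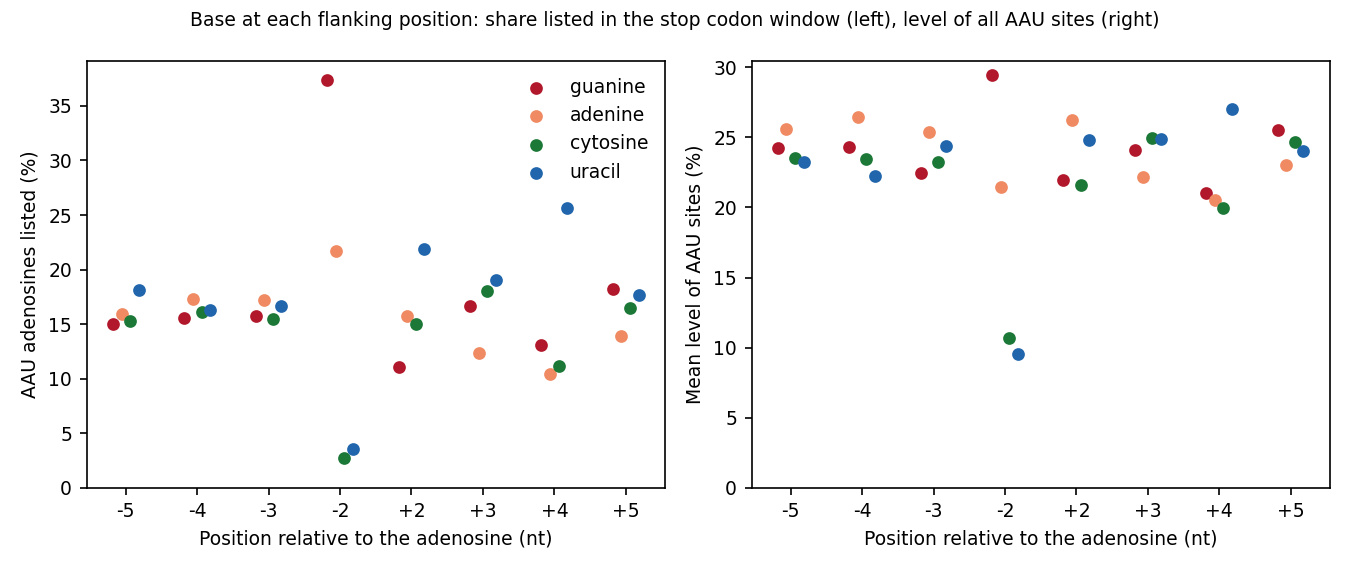
Share of AAU adenosines listed in the stop codon window (left, percent) and mean level of all listed AAU sites (right, percent) by the base at each position from −5 to +5 (x axis). Position −2 separates guanine and adenine from cytosine and uracil in both panels, and uracil stands above the other bases at +4.

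AAU sites lay mostly in the 3′ UTR. Of the 17736 sites placed on a coding transcript, 17134 (96.6%, 95% interval 96.3 to 96.9%) lay in the 3′ UTR, 540 (3.04%) in coding sequence and 62 (0.350%) upstream of it in the 5′ UTR. Among all AAU adenosines of the same 14973 transcripts, 22.0% lay in the 3′ UTR, 62.0% within the coding part and 16.0% in the 5′ UTR. Listed sites therefore numbered 1269 per 10000 AAU adenosines in the 3′ UTR, 14.2 in the coding part and 6.34 in the 5′ UTR. The levels differed as well. Within 264 genes with both, 3′ UTR sites averaged 25.3% and coding sites 12.6%, a difference of 12.7 points (SE 1.13), higher in 214 genes and lower in 50 (exact sign test, adjusted p = 4.86e-25). With sites of 20% or more only, the difference was 7.83 points over 35 genes and did not pass the test.

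The −2 preference was present in each region. A purine preceded 91.1% of AAU sites in the 3′ UTR, 91.7% of coding ones and 90.3% of those in the 5′ UTR, where 54.6, 58.2 and 57.6% of the AAU adenosines had one. In coding sequence, AAU read in frame is an asparagine codon, and 197 of 160166 such codons carried a listed site (12.3 per 10000). The other frames held 20.4 (first shifted frame) and 11.8 (second shifted frame) per 10000. With a purine at −2 these 3 values became 21.5, 25.01 and 20.2, a narrower spread. Coding AAU adenosines in the last of several exons were listed at 47.8 per 10000 (324 of 67750), against 5.84 (167 of 285904) in earlier exons. The exon classes were not matched for distance to the stop codon or for coverage, and the part of either was not tested. The listed share of AAU was 0.543% at −100 to −81 nt from the stop codon and 2.40% at −20 to −1 nt. Earlier exons of at least 400 nt had 6.92 per 10000 and shorter ones 5.18, with overlapping intervals (5.52 to 8.67 and 4.23 to 6.36). The last exon held 98.1% of all placed AAU sites and 38.6% of the AAU adenosines.

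Along the 3′ UTR, AAU sites rose to a maximum shortly after the stop codon. The median distance of placed sites was 119 nt after it (quartiles 72 and 177), and the window from −20 to +180 nt held 13023 sites (73.4%, 95% interval 72.8 to 74.1%) but 12.97% of the AAU adenosines. In bins of 20 nt, the share of AAU adenosines listed was 2.40% just before the stop codon, 5.48% just after it, 23.0% at 80 to 99 nt (1947 sites) and 3.74% at 380 to 399 nt. The level followed another course: it rose from a mean of 17.4% at 0 to 19 nt to 25.5% at 100 to 119 nt, and was still 25.2% at 380 to 399 nt. The median depth of the listed sites in these 3 bins was 98, 121 and 72.5 reads, and shallower sites are listed only at higher levels. The part of depth in the course of the level was not tested. With guanine at −2 the listed share reached 50.1% at 60 to 79 nt, with adenine 31.7% at 80 to 99 nt and with a pyrimidine 4.88% at 80 to 99 nt. The guanine class rose in level from 18.2% at 0 to 19 nt to 32.7% at 120 to 139 nt, while the pyrimidine class lay between 7.54 and 10.5% in every bin from 0 to 199 nt. Sites inside the window differed by −1.68 points from sites of the same gene outside it (SE 0.566, 1565 genes, lower in 830 and higher in 735; exact sign test, adjusted p = 0.02). This difference did not pass the test with at least 50 or 100 reads, and with levels of at least 20% its direction turned, to 1.504 points over 471 genes. With a window ending at 100 nt in place of 180 nt it passed and was larger, at −4.08 points over 2257 genes, lower in 1355 and higher in 902.

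**Figure D4:**
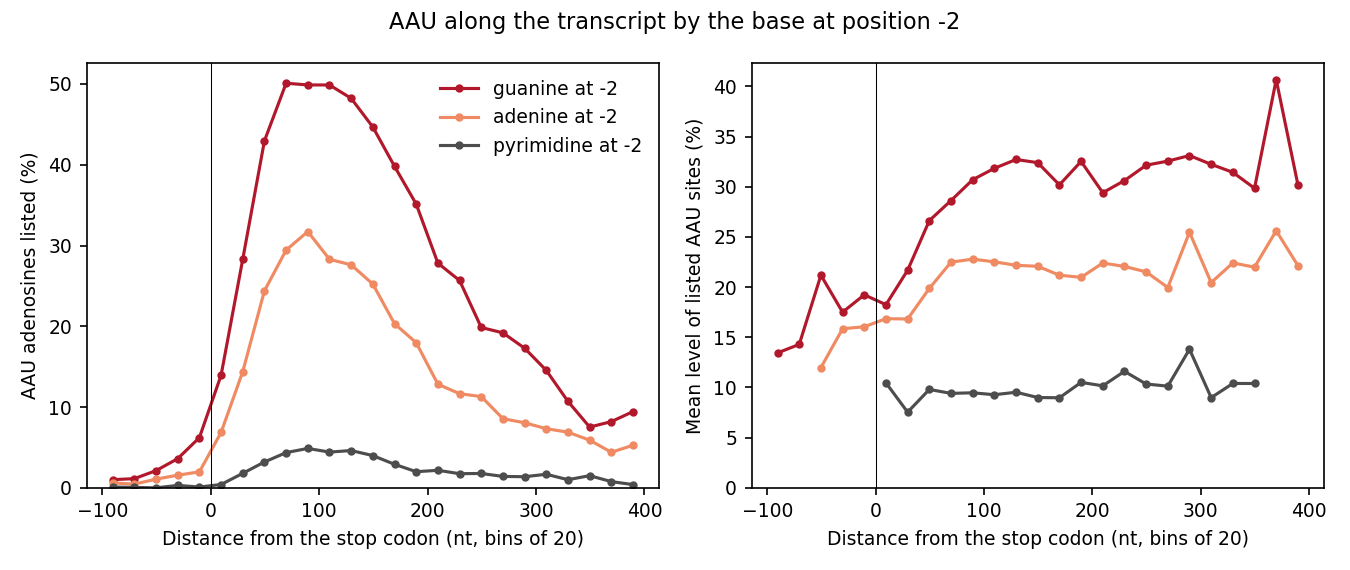
Share of AAU adenosines listed (left, percent) and mean level of listed AAU sites (right, percent; bins with under 10 sites of a class are left out) in bins of 20 nt from the stop codon (x axis), by the base at −2. The listed share peaks between 60 and 99 nt in each class and then falls, whereas the level after guanine stays between 29.4 and 40.7% from 80 to 399 nt.

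The AAU of the poly(A) signal hexamer AAUAAA was listed less often than other AAU, and at a lower level. The table listed 290 such sites, with a mean of 15.5% against 24.3% for the other 18196 AAU sites. In the stop codon window, 230 of 3244 hexamer adenosines were listed (7.09%, 95% interval 6.26 to 8.02%) against 12785 of 75956 others (16.8%). Within 230 genes with both, hexamer sites averaged 15.3% and other AAU sites 23.0%, a difference of −7.64 points (SE 1.19), lower in 169 genes and higher in 61 (exact sign test, adjusted p = 1.03e-12). With a purine at −2 in both classes, a restriction added after seeing the data, the difference was −9.44 points over 223 genes. It was −4.87 points over 31 genes with levels of at least 20%, lower in 19 and higher in 12, and did not pass the test. It was −8.29 points over the 16 genes whose hexamer lay 10 to 40 nt from the annotated transcript end, where it did not pass either.

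With guanine at −2, 21.3% of hexamer adenosines were listed against 38.1% of others, with mean levels of 17.6 and 29.7%. With adenine the shares were 7.14 and 22.4%, and the levels 12.5 and 21.6%. With a pyrimidine the shares were 0.291 and 3.34%, but the mean level was 12.6% over only 5 hexamer sites and 9.91% over the others. AAUAA followed by another base than A did not share the low values, with 1039 sites at 25.9% and 15.9% of window adenosines listed. Nor did AAUA followed by another base (27.3%, 17.97%). The hexamer also fixes adenine at +4, where uracil marked the higher sites, and AAUAA followed by another base excludes that adenine. Among all AAU with guanine at −2 and adenine at +4, hexamers included, 27.6% of window adenosines were listed and the mean level was 24.4%. With adenine at both positions these values were 12.8 and 17.1%. The part of the base at +4 in the hexamer difference was not tested. Between 10 and 39 nt from the annotated transcript end, 1.43% of hexamer adenosines and 4.54% of other AAU adenosines were listed, and at 100 to 199 nt the shares were 8.17 and 19.6%. The coverage of unlisted adenosines was not analysed here, so its part in these shares was not tested.

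**Figure D5:**
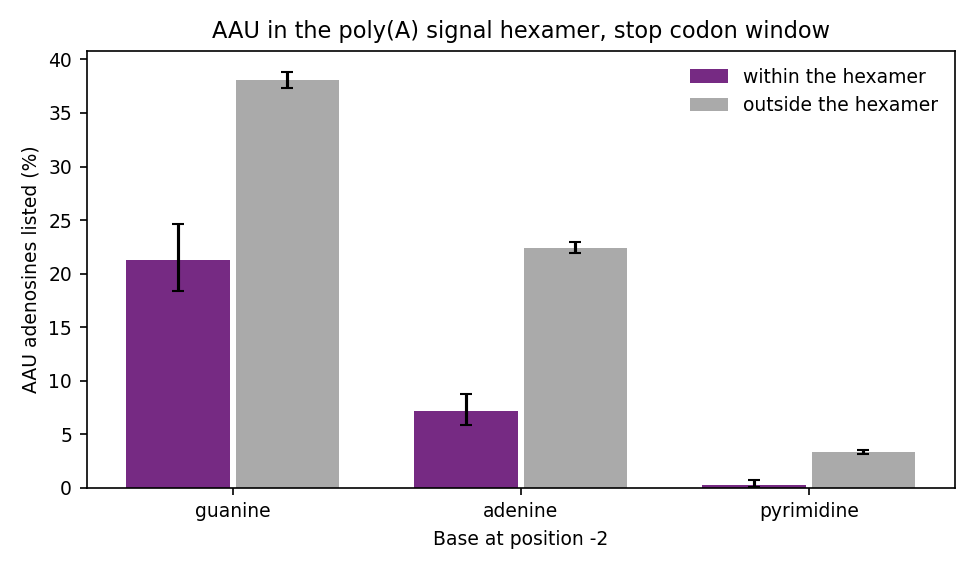
Share of AAU adenosines listed in the stop codon window (y axis, percent) within and outside the hexamer AAUAAA, by the base at position −2 (x axis), with 95% Wilson intervals as error bars. The hexamer bars are lower in all 3 classes, with 21.3 against 38.1% after guanine and 7.14 against 22.4% after adenine.

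Among hexamer sites with a level of at least 50%, the 3 with the most reads are shown with the hexamer spanning the last 4 capitals and the next 2 bases.
VDAC1, chr3:87741-87761, + strand: uuguagaaGAAUAaaaagguu
Site without a gene name, chr1:29676878-29676898, + strand: uuucaucuGAAUAaaugagau
AT1G24267, chr1:8604141-8604161, − strand: uuuguauuGAAUAaaaggcug
All 3 had guanine at −2. The site of VDAC1, a mitochondrial outer membrane channel, reached 78.8% over 293 reads (73.8 to 83.1%) and lay 319 nt before the annotated transcript end. The unnamed site had 50.2% over 211 reads (43.5 to 56.9%), and that of AT1G24267 had 56.4% over 140 reads (48.2 to 64.4%). Hexamer sites with more reads were low: TRX3, a cytosolic thioredoxin, had 3.44% over 6694 reads and GAPC1, a glycolytic dehydrogenase, 2.03% over 4572 reads, both also with guanine at −2.

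The 5 AAU sites with the highest levels at 1000 or more reads are shown because they mark how far the motif can be methylated where counting error is small.
PKT3, chr2:14047601-14047621, − strand: auauguaaGAAUAuuguucuu
NAP1;2, chr2:8441238-8441258, + strand: gaucuuauGAAUUuguuucga
GRF10, chr1:7878906-7878926, − strand: uuguuguuGAAUUgagccagc
FKBP13, chr5:18532234-18532254, + strand: aaucaaguGAAUAucucagcu
RPS18C, chr4:6175104-6175124, + strand: agugccuuGAAUAgucuuauu
PKT3 encodes a peroxisomal thiolase of fatty acid breakdown, and its site was at 89.7% (87.8 to 91.3%, 1167 reads), 203 nt after the stop codon. NAP1;2, a histone chaperone, had 84.3% over 1563 reads and GRF10, a 14-3-3 protein, 81.4% over 3131 reads. FKBP13, an immunophilin of the thylakoid lumen, had 79.6% over 1248 reads and RPS18C, a ribosomal protein, 77.7% over 1531 reads. All 5 had guanine at −2 and adenine or uracil at +2, and PKT3 and RPS18C also had uracil at +4.

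The AAU sites with the most reads of all lay near the lower limit of the table. The site of THI1, a thiazole synthase of vitamin B1 synthesis, had 1.34% over 66887 reads (1.26 to 1.43%). Those of the plastocyanin gene DRT112 had 1.962% over 42767 reads and 1.27% over 27652 reads. RBCS2B, a Rubisco small subunit gene, had 1.29% over 41506 reads, and PSBTN, a photosystem II subunit gene, had 3.88% over 32037 reads. Such low values are listed only where reads are many. Beside NPQ4, paired sites with guanine and uracil at −2 in deeply read genes lay closer together: PSBO1, of the oxygen-evolving complex, had 5.09% over 7295 reads and 1.80% over 26536 reads, and TRX3 had 3.44% over 6694 reads and 2.94% over 5378 reads.

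AAU sites were found in 9162 of the 15198 genes with a listed site (60.3%). The median was 2 AAU sites per such gene, 4332 genes had 1 and 343 had 5 or more. The highest AAU level of a gene had a median of 25% and exceeded 50% in 1886 genes (20.6%). Of 8977 genes that also had a site in another motif, the highest site was AAU in 756 (8.42%). AAU made up 15.4% of all listed sites, and how often GAU or UAC was highest is not given here. The highest site had guanine at −2 in 68.3% of those 756 genes and adenine in 30.95%. Among all AAU sites these shares were 46.1 and 45.1%. Only 185 genes had AAU sites alone. Over 3344 genes with at least 2 sites of each motif, the mean levels of AAU and AAC were weakly related across genes (Spearman 0.22, Pearson 0.20), and over 1896 genes those of AAU and GAU (0.19 and 0.19). Levels of AAU and AAC were both lower in deeper classes of reads, as given above, and these coefficients carry no test.

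In the genes with the most AAU sites, the AAU means lay between 13.1 and 25.4%. AT3G56210 had 11, all in the 3′ UTR, from 3.47 to 44.3% with a mean of 15.8%. Its 7 AAC sites averaged 64.9%. RTNLB3, a reticulon-like protein gene, had 9 AAU sites between 5.05 and 29.7% (mean 18.9%), and COS1, which encodes lumazine synthase of riboflavin synthesis, had 9 between 2.25 and 63.3% (mean 15.4%). AT3G12010 had 8 with a mean of 25.4%, of which 6 were in the 3′ UTR and 2 in coding sequence. AT2G09795, a long noncoding RNA, had 8 with a mean of 13.1%. In 4 of these 5 genes (all but AT3G12010) the AAU mean lay below the mean of all AAU sites. In all 5 it lay below the gene's AAC mean, which rests on 1 AAC site each in COS1 and AT2G09795.

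The distance to the nearest other listed site was taken for AAU sites only, so it does not show a closeness particular to AAU. Another listed site of any motif was 1 to 3 nt away for 2231 AAU sites (12.1%) and 4 to 10 nt away for 8722 (47.2%). The mean level was 27.8% for the closest class, 24.6% at 4 to 10 nt, 23.5% at 11 to 30 nt, 19.9% at 31 to 100 nt and 17.7% for the 439 sites more distant. Reads with more than 3 unconverted adenosines, or with too large a share of their adenosines unconverted, had been removed by the authors, and the part of these filters in the levels of clustered sites was not tested.

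Genes of the m6A pathway carried AAU sites themselves. Of 6 writer genes, 5 had a listed site of any motif and 4 of these an AAU site, with a median highest level of 15.2%: FIP37 reached 28.4% over 67 reads, MTA 15.9% over 44 reads and EMB1691, the locus entered as MTB, 14.5% over 55 reads. Of 11 ECT reader genes 9 had AAU sites, 22 in all, with a median highest level of 21.6%. ECT11 reached 58.7% over 75 reads (47.4 to 69.1%), ECT7 35.7% over 42 reads and ECT6 30.2% over 126 reads, all with guanine at −2. Of 5 genes entered as erasers 4 had a listed site and 3 of these had AAU sites, and AT2G17970 reached 35.8% over 53 reads, AT4G36090 32.0% over 25 reads and AT4G02940 5.02% over 518 reads. Over all genes with a listed site, 60.3% had an AAU site and the median highest level was 25%, and no order of the 3 groups was tested.

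Among 14 polyadenylation factor genes, 11 had a listed site of any motif and 6 of these had AAU sites. Over all genes with a listed site the share was 60.3%. Their median highest level was 34.4%, against 25% over all genes with an AAU site. Shallower sites are listed only at higher levels, and AAU sites with 20 to 49 reads averaged 31.4%. The part of depth in the higher median was not tested. CPSF100 and CPSF160, subunits of the complex that binds the poly(A) signal and cleaves the transcript, reached 64.6% over 65 reads (52.5 to 75.1%) and 64.5% over 31 reads (46.9 to 78.9%), and the endonuclease gene CPSF73-I reached 38.1% over 105 reads. Photosynthesis genes were read far more deeply and had low levels. Of 18 antenna genes 17 had a listed site of any motif, and 9 of these had AAU sites, with a median highest level of 4.44%. The highest were LHCA2 with 25.98% over 15183 reads, LHCA1 with 13.7% over 1441 reads and LHCB5 with 7.83% over 9381 reads. All 25 photosystem core and electron transport genes had a listed site, and 18 had AAU sites, with a median highest level of 7.55%. The highest were PETC, NPQ4 and PSBQ-2, a gene of the oxygen-evolving complex, with 18.4% over 12259 reads. The depth of these genes lowers the level that can be listed, and its part in the lower medians was not tested.

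Of 16 circadian clock genes 8 had a listed site of any motif, and 4 of these had AAU sites (median highest 17.7%). Over all genes with a listed site, 60.3% had an AAU site, and the median highest level was 25%. ELF3, of the evening complex, reached 52.9% over 102 reads (43.3 to 62.3%), RVE8, a clock activator, 20% over 35 reads, and ZTL, a blue light receptor F-box protein, 15.3% over 111 reads. All 9 photoreceptor genes had a listed site of any motif, and 6 had AAU sites (median highest 10.4%). The levels were 39.9% over 271 reads in PHOT1, 23.1% over 260 reads in PHYA and 12.8% over 117 reads in PHYB. The ELF3 site had adenine at −2 and uracil at +4, and the PHOT1 site guanine at both positions.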

How the data were processed

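CAM-seq libraries of polyadenylated RNA from 3 seedling replicates were analysed from 1 table. As the study's supplementary methods describe, the authors used Cutadapt for adapters, mapped reads to TAIR10 with hisat2-3n (versions not given in the sources used here), and removed reads with over 5% mismatched bases, with more than 3 unconverted adenosines, or with too large a share of adenosines unconverted. The deposited counts are, per site, the reads covering the adenosine and the unconverted reads, neither normalized, in columns without a sample name, which were read as the pool of the replicates. The deposited p-value is binomial, and it was recomputed with a background of 1% (111716 sites compared). The study's methods state different p-value limits, of which the table meets the looser one (0.001).

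Levels, motifs, flanks and gene names were taken from the table. Regions, stop codon distances and unlisted AAU adenosines came from RefSeq TAIR10.1, in which all 120204 nuclear sites were adenosine, and 118919 contexts were identical. Levels were averaged per gene and class, and differences were tested with an exact two-sided sign test, Benjamini-Hochberg adjusted over 8 contrasts at a threshold of 0.05, with genes as units. The test was checked on simulated data without a lower limit of listing, so the check does not cover that feature of the table. Gene symbols came from RefSeq. Intervals are 95% Wilson intervals for counting error.

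The members, lists and contrasts were chosen with earlier results of these data known. Sites were named by a rule: the 5 with most reads, overall and at a level of at least 50%, the 5 highest at 1000 or more reads, the 5 genes with most AAU sites, the 3 highest members of each list, organelle sites, and the 3 most read AAUAAA sites at a level of at least 50%. An item that the rule selects is not reported here. Sites with a context listed more than once (117) were left out of the first rules. The NPQ4, PSBO1 and TRX3 pairs and the GAPC1 site were chosen after their values were seen. Alternatives were depth, level and p-value minimums, contexts listed once, other gene summaries, 3′ UTR only, a shorter window, and other hexamer classes. Python 3.11.15, pandas 2.3.3, numpy 2.4.6, scipy 1.17.1 and matplotlib 3.10.9 were used.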

Additional observations from a re-analysis of the deposited data

Results flagged for a closer look

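The table held 602 AAU sites without a gene name, which entered none of the within-gene comparisons. Their mean level was 28.6% (median 22.6%), against 24.0% for the 17833 AAU sites with a single gene. A level above 50% was found at 15.1% of them, and a purine stood at −2 in 92.4%, against 91.2% of the single-gene sites. Their median depth was 57.5 reads, against 111 reads, and shallower sites are listed only at higher levels. On the chloroplast genome, outside the transcripts placed here, lay 3 AAU sites, 1 of them among the 602 without a gene name. They had levels of 1.35 to 2.15% over 2368 to 9414 reads, and the other two, in ATCG00950 and ATCG01180, shared the same context.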

How the results depend on the processing

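Of 95 alternative values, 68 were classed as the same, 18 moved, 8 were no longer past the threshold and 1 reversed. Apart from site numbers, the 68 kept their direction and side of the threshold or stayed within counting error. Site numbers, which have no interval, were classed as the same at 14200 (at least 50 reads), 16664 (p-value below 0.0001) and 18369 (contexts listed once), against 18486. The lower level of AAU than AAC (−26.4 to −20.8 points), its lower level than UAC (−6.87 to −6.09) and the higher level after a purine at −2 (19.9 to 21.4) held under all 8 alternatives, and the difference at +2 (0.428 to 2.69) passed under none. The difference between AAU and GAU did not pass with at least 50 reads (−1.85), with at least 100 reads (−2.39) or with summed reads (−1.66). The difference between the stop codon window and outside did not pass with at least 50 reads (−0.986) or 100 reads (−0.432), and reversed with levels of at least 20% (1.504). With levels of at least 20% the hexamer difference (−4.87, 31 genes) and the difference between 3′ UTR and coding sequence (7.83, 35 genes) did not pass, nor did the hexamer difference 10 to 40 nt from the transcript end (−8.29, 16 genes); fewer genes entered these tests.

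The mean AAU level was 22.0% with at least 50 reads, 19.9% with at least 100 reads, 41.7% with levels of at least 20% and 25.97% with a p-value below 0.0001. The number of sites was 9805 with at least 100 reads and 8168 with levels of at least 20%. In the same order of the 4 alternatives, the 3′ UTR share was 96.9, 96.9, 98.1 and 97.0%, and the share above a level of 50% was 10.96, 9.74, 27.9 and 13.7%. The window share was 75.8, 77.9 and 72.4% under the first 3, and the hexamer share was 0.784% of sites with levels of at least 20%. No replicate could be left out, and no paired analysis was possible because the table has no separate counts per replicate.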
